A study of Mus musculus with 42 samples.

Results

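The genes of bile acid synthesis, conjugation, uptake and FXR control were followed in mouse liver. Members were taken by gene symbol from a set list of 10 genes, and all 10 were found in each of the 6 comparison tables, out of 19758 gene names listed in any table and 12742 listed in all 6. Liver RNA came from 42 male C57BL/6J mice, 7 in each of 6 groups, with 1 library per mouse. WT mice and littermates lacking ChemR23 in the whole body through CRISPR/Cas9 (KO) began a lard-based diet at 6 weeks of age and stayed on it for 15 weeks. Lean mice ate a diet with 10% of its energy as fat and obese mice one with 60%. On 4 consecutive days before harvest on day 5, WT obese+RvE1 and KO obese+RvE1 mice were injected with 300 ng of RvE1, an eicosapentaenoic acid-derived lipid that binds ChemR23, while the WT lean, WT obese, KO lean and KO obese mice were injected with vehicle. Food was withheld for at least 4 hours before harvest, and the clock time of harvest is not given in the sources used here. Whole liver was used, so hepatocytes were sequenced together with bile duct, immune, endothelial and stellate cells.

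Bile acids are made from cholesterol in hepatocytes. The classical pathway begins with Cyp7a1, the rate-limiting 7-alpha-hydroxylase, continues through Hsd3b7 and uses Cyp8b1, the 12-alpha-hydroxylase that sets the share of cholic acid, while the alternative pathway runs through the mitochondrial sterol 27-hydroxylase Cyp27a1 and the oxysterol 7-alpha-hydroxylase Cyp7b1. Baat joins the acids to taurine or glycine, and Slc10a1 (NTCP) and Slco1b2 (an OATP transporter) take them back up from the portal blood. FXR, encoded by Nr1h4, is the nuclear receptor that senses bile acids and induces Nr0b2 (SHP), a partner protein that lowers Cyp7a1 and Cyp8b1 transcription.

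Values are normalized counts, that is reads per gene after division by the size factor of each library, and they can be compared only within the table of a comparison. On the genes listed in the tables, 15992556 to 43841273 reads were counted per library (median 24298307), and the members were deeply counted: from 308 reads for Nr0b2 to 173767 reads for Slco1b2 in single libraries. Cmklr1, the gene of ChemR23, lay lower in each of the 7 KO than in each of the 7 WT libraries on both diets (log2 fold change of -2.23 in lean and -2.04 in obese mice), so the libraries carried the genotype they were labelled with. A member was counted as changed at a Benjamini-Hochberg adjusted p under 0.1 in limma, adjusted over all genes of the table, whatever its fold change. In bulk liver, fewer cells of a type and less RNA per cell cannot be told apart.

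Promoters of 7 of the 10 members were found in a table of RefSeq promoters (GRCm38.p6), with 2 for Slc10a1. Those of Nr0b2 and Cyp8b1 are shown, because both genes varied widely between mice of a group and both held the letters CAAGGNCA, an extended half-site of the kind that the nuclear receptor LRH-1 (Nr5a2), through which SHP acts, is known to bind. Each run below holds the 250 bases before the transcription start, 5′ to 3′ on the strand of the gene, with the match in capitals. Nr0b2 lies at chr4:133553126-133553375 on the plus strand, and Cyp8b1 at chr9:121916306-121916555 on the minus strand.
Nr0b2: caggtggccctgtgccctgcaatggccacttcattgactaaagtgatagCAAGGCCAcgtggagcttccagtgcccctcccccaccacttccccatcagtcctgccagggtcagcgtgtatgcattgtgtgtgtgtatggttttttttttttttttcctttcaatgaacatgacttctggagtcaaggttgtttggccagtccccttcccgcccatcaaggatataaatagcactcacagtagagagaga
Cyp8b1: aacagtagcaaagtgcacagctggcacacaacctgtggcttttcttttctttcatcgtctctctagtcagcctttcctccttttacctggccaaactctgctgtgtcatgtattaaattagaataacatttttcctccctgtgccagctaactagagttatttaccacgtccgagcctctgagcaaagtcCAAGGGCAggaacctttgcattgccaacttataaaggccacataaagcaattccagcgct
The match began 201 bases before the start in Nr0b2 and 60 bases before it in Cyp8b1. Searched on both strands, these letters were held by 5.53% of the 32851 promoters of the same length. The letters of an FXR-type inverted repeat (AGGTCA, any base, then TGACCT, in 0.00609% of promoters) and of a direct repeat (AGGTCA, any base, then AGGTCA, in 0.0335%) were not in the windows of the 7 members. A match is a description of letters and not evidence that a factor binds.

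The members lie on 8 chromosomes (GRCm38, gene spans of GENCODE M21). Cyp7a1 spans chr4:6265612-6275633, Hsd3b7 chr7:127800604-127803802 and Cyp8b1, a gene without introns, chr9:121914356-121916305. Cyp27a1 spans chr1:74713574-74737892, Cyp7b1 chr3:18071950-18243338 and Baat chr4:49489422-49506557. Nr1h4 spans chr10:89454234-89533585, Nr0b2 chr4:133553376-133556536, Slc10a1 chr12:80953183-80968705 and Slco1b2 chr6:141629518-141686646. Cyp7b1 overlaps an snRNA gene on its own strand, and Hsd3b7 overlaps a protein-coding model on its own strand and a further transcript on the other. None of these 3 overlapping genes is listed in the tables. The strand setting of the authors' counting is not given in the sources used here.

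Per kilobase of exon, Slco1b2 had the highest and Nr1h4, Cyp7a1 and Nr0b2 the lowest mean levels of the members in each of the 6 groups. Slc10a1 came second in 5 groups, and in KO lean liver Cyp8b1 (9200 normalized counts per kilobase) stood before it (8766). In WT lean liver the level was 9890 normalized counts per kilobase for Slco1b2 and 7358 for Slc10a1. Cyp8b1 (4866), Baat (4382), Hsd3b7 (3695), Cyp27a1 (3554) and Cyp7b1 (2647) came next, and the ranges of neighbours in this order overlapped between mice. Nr1h4 (1078), Cyp7a1 (933) and Nr0b2 (799) closed the order on this per-length scale. In KO obese liver Slco1b2 (15331 per kilobase) and Slc10a1 (7731) again led and Nr0b2 (534) was again last, with Cyp7a1 (1642) ahead of Nr1h4 (1507).

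The members differed in how much they varied among mice kept under the same conditions. After each mouse was centred on its group mean, the within-group SD on the log2 scale was 0.90 for Cyp7b1, 0.72 for Nr0b2, 0.67 for Cyp7a1 and 0.60 for Cyp8b1. These values lay at the 98.3rd, 96.4th, 95.5th and 93.5th percentile of 10800 well-counted genes. Nr1h4 (0.23), Slc10a1 (0.26) and Baat (0.30) were the steadiest members, at the 31.6th, 40.2nd and 52.8th percentile. The size of the smallest difference that 7 mice per group could show therefore differed between members.

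WT obese mice were first compared with WT lean mice, to ask how the high fat diet bore on these genes. Cyp7a1 was the only member that changed, and it was higher in obese liver. Its lowest, median and highest values were 1219, 3581 and 6721 normalized counts in WT lean mice and 2775, 8211 and 13559 in WT obese mice. Of the 7 WT obese mice, 5 exceeded every WT lean value and 1 lay below the WT lean median. The mean rose from 3896 ± 1721 (SD, n = 7) to 8738 ± 3802 (SD, n = 7), a log2 fold change of 1.17 ± 0.36 (SE), or 2.24-fold with a 95% interval of 1.32 to 3.80 (limma, adjusted p = 0.089). Thus 1 of 10 members changed, beside 6.27% of all 14012 genes tested (3.65% higher, 2.61% lower).

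This call rested on a narrow margin. It was kept by edgeR on the recovered reads (adjusted p = 0.069, with 6.41% of all genes called) and by DESeq2 (adjusted p = 0.011, with 9.76%), as well as with quality weights (adjusted p = 0.094, with 11.5%), and lost with the opening number of the mouse identifier as a random block (adjusted p = 0.253) and with a correction for gene length and GC content (adjusted p = 0.102). It was also lost when any 1 of 9 mice was left out (adjusted p of 0.110 to 0.161), namely 19R, 21L, 26R or 8R among WT lean and 27-2L, 27RL, 6L, 6RL or 6R among WT obese mice, while the log2 fold change stayed between 0.91 and 1.42 over all 14 such omissions.

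**Figure D1:**
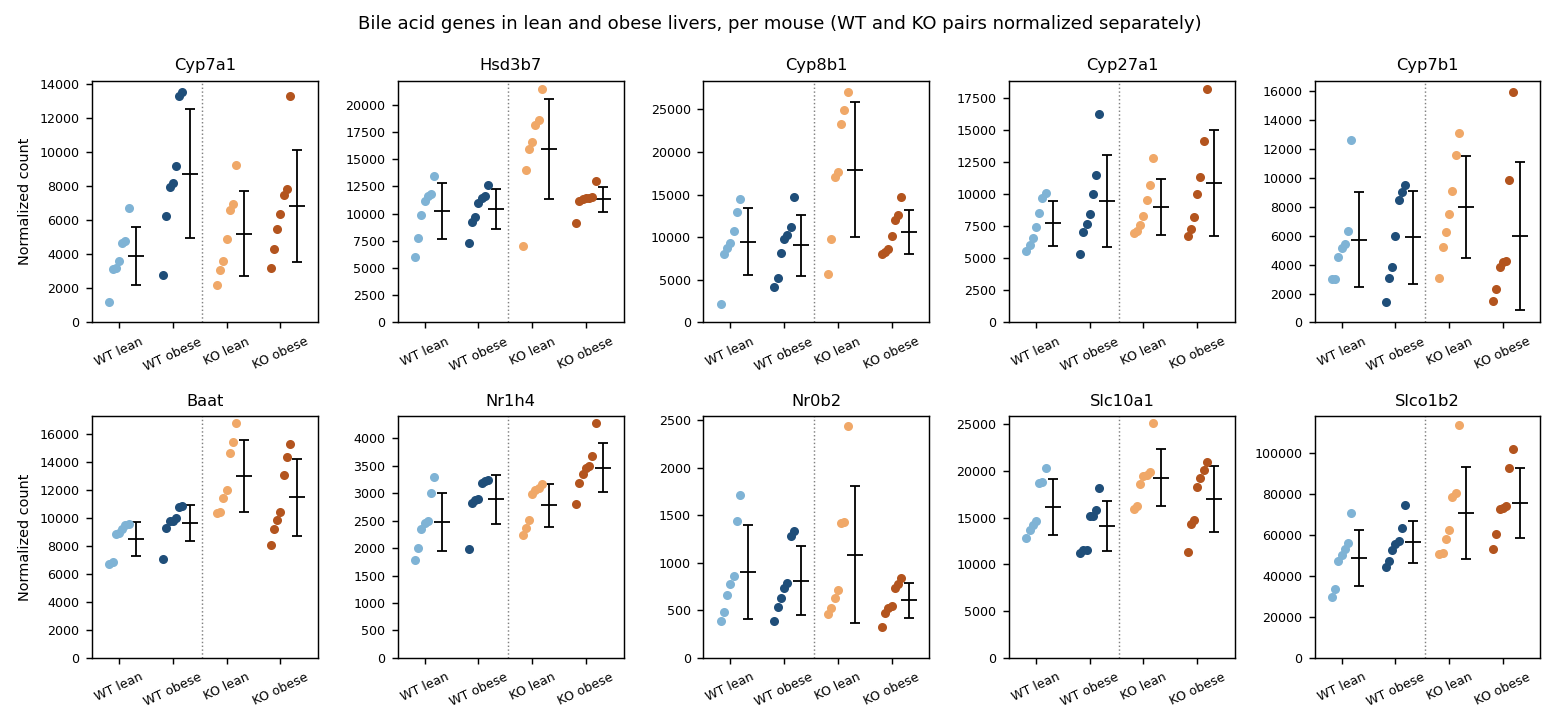
Normalized counts (y axis, from 0) of the 10 members in each mouse of the WT lean, WT obese, KO lean and KO obese groups (x axis); points are mice, black marks the mean ± SD of 7 mice, and the dotted line parts tables that were normalized separately. Cyp7a1 runs from 2775 to 13559 in WT obese against 1219 to 6721 in WT lean liver. Within the KO pair, Hsd3b7 runs from 7026 to 21407 in lean against 9152 to 13036 in obese liver. Cyp8b1 runs from 5733 to 27073 in KO lean against 7999 to 14658 in KO obese liver.

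The other enzymes of the classical pathway were not called in WT mice on the high fat diet. Hsd3b7 measured 10232 ± 2591 (SD, n = 7) in WT lean and 10418 ± 1796 in WT obese liver. Cyp8b1 measured 9489 ± 3972 and 9065 ± 3596, with a log2 fold change of 0.00 whose 95% interval of -0.77 to 0.77 reached up to a 1.71-fold higher level. Neither passed the test (limma adjusted p of 0.91 and 1.00).

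In the alternative pathway, Cyp27a1 gave a log2 fold change of 0.25 ± 0.21 (SE) and Cyp7b1 one of -0.06 ± 0.41, neither past the test (adjusted p of 0.58 and 0.96 in limma). Cyp7b1 overlapped between the groups, from 3021 to 12638 in WT lean and from 1393 to 9507 in WT obese liver. Baat gave 0.18 (95% interval -0.08 to 0.44), with 5 of 7 WT obese values above all WT lean values and 1 below the WT lean median (limma adjusted p = 0.47).

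Neither receptor was called in WT mice. Nr1h4 measured 2483 ± 528 (SD, n = 7) in WT lean and 2890 ± 441 in WT obese liver, and Nr0b2 measured 905 ± 496 and 812 ± 365. The log2 fold change of Nr0b2 was -0.10 with a 95% interval of -0.80 to 0.61. For uptake, Slc10a1 gave -0.20 ± 0.15 (SE) and Slco1b2 gave 0.25 ± 0.19. Over the 10 members the median log2 fold change was 0.12, beside 0.00 over all genes.

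KO obese mice were next compared with KO lean mice, the same question asked in the absence of ChemR23. Nr1h4, the gene of FXR, was the only member that changed and it was higher in obese liver. Its lowest, median and highest values were 2233, 2987 and 3177 in KO lean and 2810, 3467 and 4277 in KO obese mice. Of the 7 KO obese mice, 6 exceeded every KO lean value. Its log2 fold change was 0.32 ± 0.11 (SE), or 1.25-fold (95% interval 1.06 to 1.48, limma adjusted p = 0.064). The count of 1 of 10 members stands beside 24.1% of the 14213 genes tested, 12% higher and 12.1% lower. The call was lost with the identifier block (adjusted p = 0.198) and without 20-2L or 20L of the KO lean or 10RL, 31N or 31R of the KO obese mice (adjusted p of 0.101 to 0.140).

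Cyp7a1, which was higher on the high fat diet in WT mice, measured 5221 ± 2502 (SD, n = 7) in KO lean and 6853 ± 3294 in KO obese liver. The groups overlapped, from 2210 to 9230 and from 3188 to 13310. Its log2 fold change of 0.41 ± 0.32 (SE) did not pass the test (limma adjusted p = 0.41). The difference between the KO and the WT diet response, tested as an interaction, was -0.75 with a 95% interval of -1.81 to 0.31 (limma adjusted p = 0.46), so a difference between the genotypes was not shown.

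Hsd3b7 and Cyp8b1, the other classical enzymes, were counted at lower levels in KO obese than in most KO lean mice. Hsd3b7 had lowest, median and highest values of 7026, 16556 and 21407 in KO lean and 9152, 11433 and 13036 in KO obese liver. Cyp8b1 had 5733, 17635 and 27073 in KO lean and 7999, 10116 and 14658 in KO obese liver. For both genes each of the 7 KO obese mice lay below the KO lean median, and 1 KO lean mouse, 20R, lay below all KO obese mice.

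With all 14 mice neither gene passed (log2 fold change of -0.44 ± 0.19 (SE) and adjusted p = 0.13 for Hsd3b7, -0.63 ± 0.29 and adjusted p = 0.15 for Cyp8b1, limma). Without 20R both passed, at -0.62 (adjusted p = 0.0026) for Hsd3b7 and -0.87 (adjusted p = 0.012) for Cyp8b1. This was the only 1 of 14 omissions of 1 mouse in which either passed, and 20R held the values that went against the difference. With all mice, edgeR also called both (adjusted p of 0.076 and 0.073), as did DESeq2 (0.040 and 0.034), and the limma fit with library quality weights gave -0.54 and -1.04 (0.0080 and 0.0031). The identifier block left both uncalled (adjusted p of 0.26 and 0.25). The share of all genes called was 25.1% with edgeR, 27.9% with DESeq2 and 40.4% with quality weights.

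Cyp7b1 and Nr0b2 had the largest SE of the members in KO obese against KO lean mice. Cyp7b1 ran from 3076 to 13097 in KO lean and from 1481 to 15944 in KO obese liver, where mouse 23L held the highest value. Its log2 fold change was -0.69 ± 0.44 (SE, limma adjusted p = 0.30), and without 23L, the only such case of 14 omissions, it passed (adjusted p = 0.084). Over the settings with all mice Cyp7b1 gave -1.25 to -0.42, with adjusted p of 0.018 to 0.58. Nr0b2 had a median of 710 in KO lean and 549 in KO obese liver, with a highest value of 2435 and 843. Its log2 fold change was -0.66 ± 0.33 (SE, limma adjusted p = 0.18), and it was called by edgeR (-0.84, adjusted p = 0.098) and by DESeq2 (-0.85, adjusted p = 0.052). Over the settings with all mice Nr0b2 gave -0.85 to -0.13, with adjusted p up to 0.75, and it passed in 0 of 14 omissions of 1 mouse.

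The remaining members did not pass in KO mice on the high fat diet. Cyp27a1 gave a log2 fold change of 0.22 ± 0.21 (SE), Baat -0.19 ± 0.17, Slc10a1 -0.20 ± 0.15 and Slco1b2 0.12 ± 0.21, with adjusted p of 0.40 or more in limma. The median over the 10 members was -0.19, beside 0.00 over all genes. In the interaction of diet with genotype none of the 10 members passed (smallest adjusted p = 0.33 in limma), beside 0.00717% of the 13945 genes tested, and none of the 10 had an unadjusted p under 0.05 beside 2557 genes in all. None passed with edgeR (38 genes called) or DESeq2 (6.65% of all genes called), while Hsd3b7 passed with quality weights (-0.67, adjusted p = 0.046), where 18.4% of all genes were called.

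**Figure D2:**
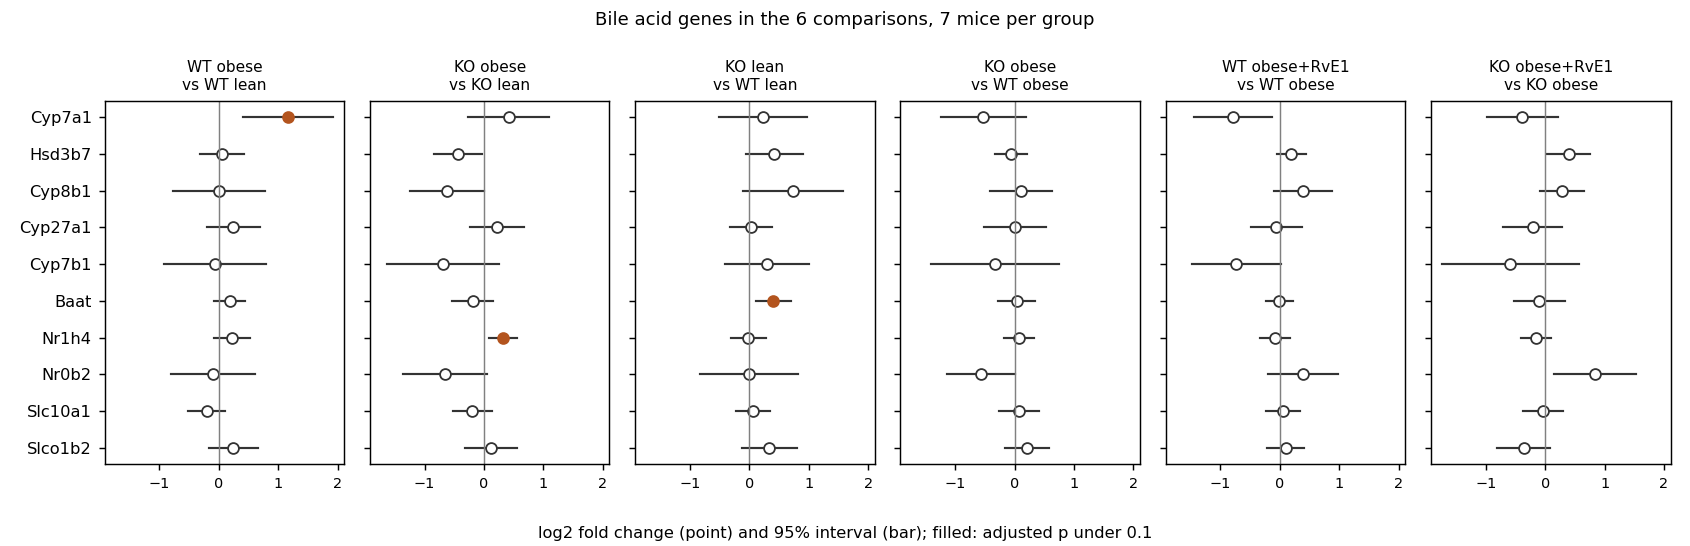
Log2 fold change (x axis) of each of the 10 members (y axis) in the 6 comparisons, with 7 mice per group; points are limma estimates, bars are 95% intervals and filled points passed at an adjusted p under 0.1. The 3 filled points are Cyp7a1 in WT obese vs WT lean (1.17), Nr1h4 in KO obese vs KO lean (0.32) and Baat in KO lean vs WT lean (0.41).

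KO lean mice were then compared with WT lean mice, to ask what the loss of ChemR23 alone changed. Baat, the conjugating enzyme, was the only member that changed. Its lowest, median and highest values were 6946, 9302 and 9931 in WT lean and 9380, 10885 and 15172 in KO lean mice. All 7 KO lean mice exceeded the WT lean median and 5 exceeded every WT lean value. The mean was 8844 ± 1280 (SD, n = 7) in WT lean and 11790 ± 2334 in KO lean liver, and the log2 fold change was 0.41 ± 0.14 (SE), or 1.32-fold (95% interval 1.08 to 1.62, limma adjusted p = 0.077). In this comparison 1 of 10 members passed, beside 16.3% of the 13031 genes tested (8% higher, 8.3% lower).

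The Baat call was kept by edgeR and DESeq2 (adjusted p of 0.070 and 0.032, with 16.4% and 19.8% of all genes called). It was lost with the gene length and GC correction (log2 fold change of 0.25, adjusted p = 0.164), with the identifier block (adjusted p = 0.193), and without 21L, 26R or 8R of the WT lean or 14RL, 20-2L, 20L or 9L of the KO lean mice (adjusted p of 0.115 to 0.162). With all mice of 1 number left out, it was lost for numbers 20, 21, 26, 8 and 9 (limma adjusted p of 0.127 to 0.197). It was kept for numbers 14 and 19. Of the 17 identifier numbers 16 belonged to 1 group only, with 4 numbers among WT lean and 3 among KO lean mice, and the fit with the block compares the genotypes over these numbers.

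Hsd3b7 and Cyp8b1 were again high in most KO lean mice. In this table Hsd3b7 measured 10637 ± 2693 (SD, n = 7) in WT lean and 14488 ± 4140 in KO lean liver, with 5 KO mice above the highest WT mouse. Cyp8b1 measured 9863 ± 4125 and 16287 ± 7185, also with 5 KO mice above the highest WT mouse. Their log2 fold changes of 0.42 ± 0.23 and 0.74 ± 0.40 (SE) did not pass (limma adjusted p of 0.25 for both). Without KO lean mouse 20R they were 0.61 (adjusted p = 0.026) and 0.98 (adjusted p = 0.070). With quality weights, where 33% of all genes were called, they were 0.60 (adjusted p = 0.031) and 0.96 (adjusted p = 0.042). With all mice edgeR and DESeq2 called neither gene, and over the settings their adjusted p reached 0.35 and 0.36. The omission of 20R was the only 1 of 14 omissions of 1 mouse in which either passed. The KO lean libraries are the same ones that entered the diet comparison in KO mice, so the 2 comparisons are not independent.

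Cyp7a1 (0.23 ± 0.35, SE), Cyp7b1 (0.30 ± 0.33) and Slco1b2 (0.34 ± 0.22) did not pass in lean mice, and Cyp27a1, Nr1h4, Nr0b2 and Slc10a1 gave log2 fold changes between -0.02 and 0.06. Nr0b2 had a 95% interval of -0.82 to 0.83, the widest after that of Cyp8b1. Of the 10 estimates 9 lay above 0, and their median was 0.27 beside 0.00 over all genes.

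Markers of Kupffer cells, the resident macrophages of the liver, moved with the KO lean group. All 7 markers tested of 8 listed were higher in KO lean than in WT lean mice, and their summed normalized counts ran from 8010 to 16584 in KO lean and from 3363 to 7319 in WT lean liver, without overlap. With the identifier block none of the 7 passed (adjusted p of 0.111 to 0.160), and 5 to 7 passed when 1 mouse was left out. In KO mice on the high fat diet 6 of the 7 were lower than in KO lean mice, of which 5 passed with the block. Of 8 hepatocyte markers 1 was higher in KO obese than KO lean mice, though not with the block, and none passed in lean mice. Their summed counts overlapped in both comparisons, from 986608 to 1378983 in KO lean against 1048131 to 1557447 in WT lean liver. Among markers of other cell types, 4 of 8 endothelial, 1 of 8 stellate cell and 1 of 3 erythroid markers tested were lower in KO obese than KO lean mice, and 1 of 8 endothelial markers was higher and 2 of 8 stellate cell and 1 of 6 cholangiocyte markers lower in KO lean than WT lean mice. With the block none of these endothelial, stellate cell and cholangiocyte markers passed. No marker of these lists passed in WT mice on the high fat diet, beside 6.27% of all genes. The marker counts stand beside 24.1% of all genes called in KO obese against KO lean mice (12% higher, 12.1% lower). In KO lean against WT lean mice the share was 16.3% (8% higher, 8.3% lower). The block also lowered the counts over all genes in these comparisons, as given below. The part of these marker lists in the values of Baat, Hsd3b7 and Cyp8b1 was not tested.

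**Figure D3:**
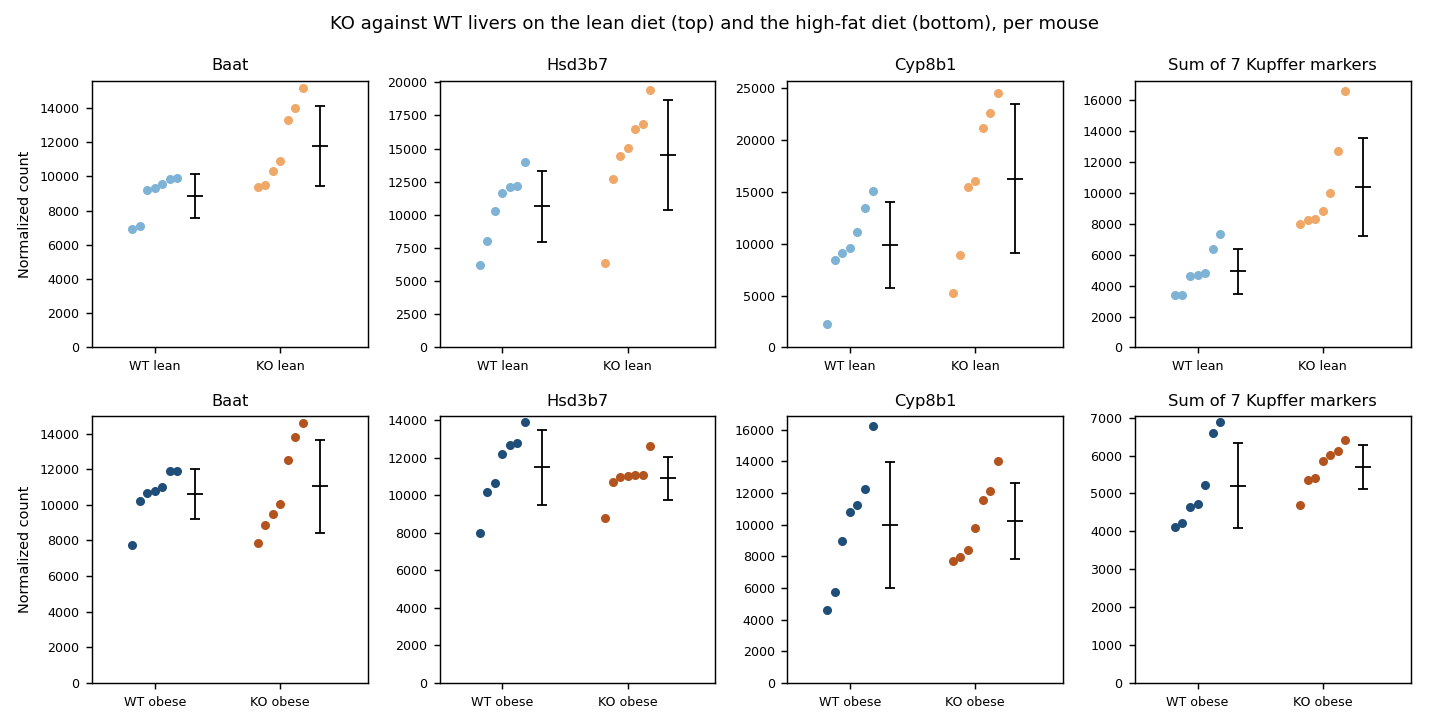
Normalized counts (y axis, from 0) of Baat, Hsd3b7 and Cyp8b1 and the summed counts of 7 Kupffer cell markers in each mouse, for WT lean and KO lean (top row) and WT obese and KO obese (bottom row); points are mice and black marks the mean ± SD of 7 mice. The marker sums do not overlap on the lean diet (3363 to 7319 against 8010 to 16584) and overlap on the high fat diet (4107 to 6892 against 4688 to 6418).

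On the high fat diet no member passed between KO and WT mice (limma, smallest adjusted p = 1.00), beside 0.0141% of the 14162 genes tested (0.00706% higher and 0.00706% lower). None of the 10 members had an unadjusted p under 0.05, beside 319 genes in all, and edgeR and DESeq2 called none. Cyp7a1 ran from 3066 to 15004 in WT obese and from 3104 to 12832 in KO obese liver, with 1 of 7 KO mice above the WT median and a log2 fold change of -0.52 (95% interval -1.24 to 0.19). Nr0b2 ran from 423 to 1468 and from 314 to 813, also with 1 KO mouse above the WT median, and its log2 fold change was -0.56 (95% interval -1.13 to 0.01). Both intervals include a fold change of 2-fold lower and one close to 1. Cyp7b1 gave -0.33 ± 0.51 (SE), and the other 7 members lay between -0.06 and 0.22.

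The response to RvE1 was examined in WT obese mice, which carry the receptor. No member passed, and neither did any other of the 13085 genes tested (0% called, 795 with an unadjusted p under 0.05, 1 called by edgeR, 0.00764%, and 25 by DESeq2, none of them members). Cyp7a1 had lowest, median and highest values of 3275, 9626 and 16003 in WT obese and 3539, 5078 and 8361 in WT obese+RvE1 mice. All 7 treated mice lay below the WT obese median, yet none lay below the lowest WT obese mouse. The log2 fold change was -0.79 ± 0.31 (SE, 95% interval -1.44 to -0.13) with an unadjusted p of 0.022 and an adjusted p of 0.77 in limma.

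Cyp7b1 showed the same arrangement of values. It had 1632, 7046 and 11156 in WT obese and 2540, 3644 and 4621 in WT obese+RvE1 mice, again with all 7 treated mice below the WT obese median. The log2 fold change was -0.73 ± 0.35 (SE, limma adjusted p = 0.84). Cyp8b1 gave 0.38 ± 0.23 and Nr0b2 0.39 ± 0.28, neither past the test. The other 6 members had log2 fold changes between -0.08 and 0.19. Within WT obese+RvE1 mice the SD of Cyp7b1 was 734 against 3772 in WT obese mice, and that of Hsd3b7 was 928 against 2123. The WT obese values of Cyp7b1 ran from 1632 to 4478 in mice numbered 6 and from 7046 to 11156 in the others. In the KO pair Hsd3b7 spread wider with RvE1 (10171 to 21707 against 9187 to 13179). Cyp7b1 spread less widely there (944 to 8591 against 1510 to 16070). The part of RvE1 in these spreads was not tested.

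In KO obese mice, which lack the receptor, RvE1 also left all 10 members without a call (0% of 14207 genes called in limma, 1179 with an unadjusted p under 0.05, none called by edgeR and 17 by DESeq2, none of them members). Nr0b2 had 329, 553 and 852 in KO obese and 562, 1038 and 3041 in KO obese+RvE1 mice. All 7 treated mice lay above the KO obese median and 4 lay above the highest KO obese mouse. The log2 fold change was 0.83 ± 0.33 (SE, 95% interval 0.14 to 1.52) with an unadjusted p of 0.021 and an adjusted p of 0.57 in limma.

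Hsd3b7 gave 0.40 ± 0.17 (SE, unadjusted p = 0.032, adjusted p = 0.58), with 5 treated mice above all KO obese mice. Cyp7a1 gave -0.39 ± 0.28, from 3249 to 13434 in KO obese and from 3529 to 8540 in KO obese+RvE1 mice. Cyp7b1 gave -0.58 ± 0.54 and Slco1b2 -0.36 ± 0.21. Cyp7b1 turned to 0.12 with library quality weights, where 0.00704% of all genes and no member were called. The other 5 members lay between -0.21 and 0.28.

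The RvE1 responses of WT and KO mice were compared as an interaction. No member passed (limma, 0% of 13079 genes called, 312 with an unadjusted p under 0.05 and none by edgeR or DESeq2). For Cyp7a1 the KO response minus the WT response was 0.40 with a 95% interval of -0.51 to 1.31, and for Nr0b2 it was 0.45 with an interval of -0.48 to 1.38. These intervals include differences of more than 2-fold, so the 2 genotypes cannot be called alike.

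**Figure D4:**
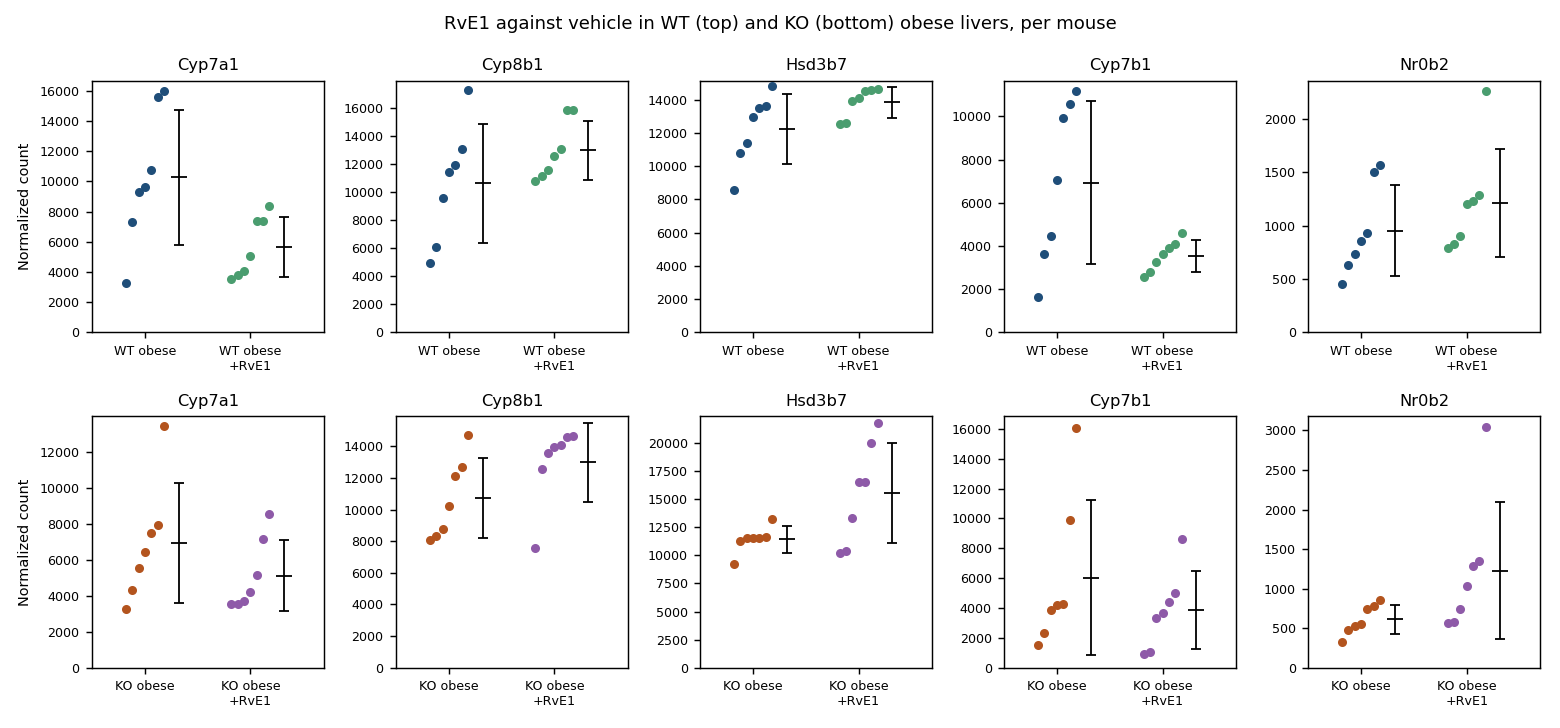
Normalized counts (y axis, from 0) of Cyp7a1, Cyp8b1, Hsd3b7, Cyp7b1 and Nr0b2 in each mouse given vehicle or RvE1, in WT obese (top row) and KO obese mice (bottom row), each row normalized on its own; points are mice and black marks the mean ± SD of 7 mice. Treated WT mice lie below the vehicle median for Cyp7a1 (9626) and Cyp7b1 (7046), and treated KO mice lie above it for Nr0b2 (553), with no adjusted p under 0.1.

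In some groups the values of Cyp7b1 and Nr0b2 lay apart by the opening number of the mouse identifier, and in others they overlapped. What this number stands for is not given in the sources used here. In WT obese liver Cyp7b1 ran from 1393 to 3817 in the 3 mice numbered 6 and from 5969 to 9507 in the 3 numbered 27, with 8482 in the mouse numbered 22. In KO lean liver it ran from 11583 to 13097 in the 2 mice numbered 9, from 6290 to 9087 in the 2 numbered 14 and from 3076 to 7529 in the 3 numbered 20.

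Nr0b2 split KO lean mice in another way. It ran from 1423 to 2435 in the 3 mice numbered 20 and from 461 to 710 in the 4 mice numbered 9 and 14. In WT lean liver the 2 mice numbered 26 held 1445 and 1717, above the 385 to 861 of the other 5. In other groups the numbers overlapped. Cyp7b1 ran from 1047 to 8591 in the 3 KO obese+RvE1 mice numbered 12 and from 944 to 4993 in the 2 numbered 23, and from 2803 to 4091 and 2540 to 4621 in the WT obese+RvE1 mice numbered 7 and 30. Nr0b2 in KO obese liver ran from 322 to 843 in the mice numbered 10 and from 473 to 739 in those numbered 31. These values are a description of mice that share a label, chosen after their values were seen. The random block that carried this number had a consensus correlation over all genes of 0.22 to 0.26 in the diet and genotype comparisons, 0.37 in the WT and 0.06 in the KO comparison of RvE1.

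**Figure D5:**
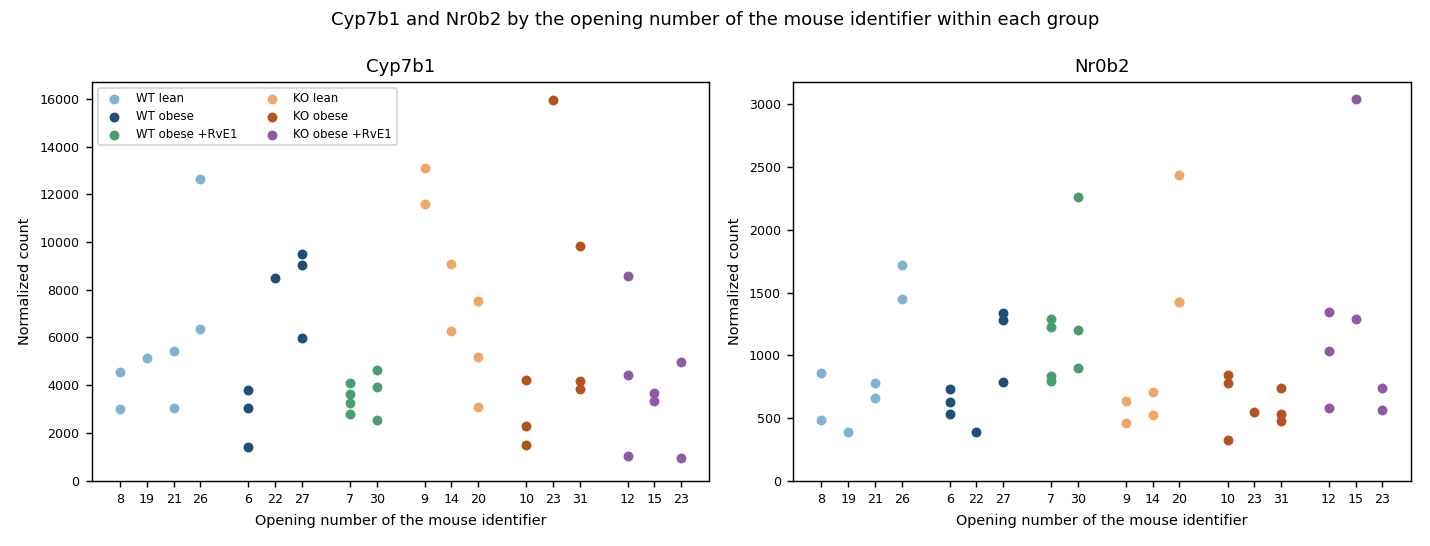
Normalized counts (y axis, from 0) of Cyp7b1 and Nr0b2 in each mouse, arranged by the opening number of the mouse identifier within each of the 6 groups (x axis, colours mark groups; lean and obese vehicle values from the diet tables, RvE1 values from the RvE1 tables). Mice numbered 6 lie lowest for Cyp7b1 in WT obese liver, and mice numbered 20 lie highest for Nr0b2 in KO lean liver.

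Because Cyp7a1 opens the classical pathway, its level was set against that of each other member over the 42 mice, after centring on the group mean. The strongest relation was with Slc10a1 (Pearson r = 0.41, permutation p = 0.0128, adjusted over 9 relations 0.115; Spearman rho = 0.38, permutation p = 0.0206, adjusted 0.186), and it was above 0 in each of the 6 groups. Without the 2 mice farthest from the median of Cyp7a1 the r was 0.36. By group the r with Slc10a1 ran from 0.08 to 0.70. That with Cyp7b1 was above 0 in each group as well (0.09 to 0.55). Cyp8b1 gave r = 0.39 (permutation p = 0.0334, adjusted 0.150; rho = 0.25, p = 0.137, adjusted 0.412), and without those 2 mice r was 0.11, so this relation rested on them. By group the r with Cyp8b1 ran from -0.63 in KO obese+RvE1 to 0.91 in WT lean mice.

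No relation passed the adjustment. Nr0b2, whose protein is known to lower Cyp7a1 transcription, gave r = 0.25 (permutation p = 0.139, adjusted 0.336; rho = 0.26, p = 0.124, adjusted 0.412) and 0.20 without the 2 farthest mice. Hsd3b7, Cyp27a1, Cyp7b1, Baat, Nr1h4 and Slco1b2 gave r between -0.06 and 0.25 (adjusted permutation p of 0.336 or more) and rho between -0.03 and 0.22 (adjusted permutation p of 0.423 or more). Among all pairs of members, Baat and Slco1b2 were the most alike (r = 0.71), followed by Baat and Cyp7b1 (r = 0.59). All members of a mouse were counted in the same library, and libraries differed in depth. These values are descriptions and carry no test.

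Among 10800 genes with at least 50 scaled reads on average, the 3 whose centred values followed Cyp7a1 most closely over the 42 mice were Aldh9a1 (r = 0.55), Tm7sf2 (0.53) and Pcmt1 (0.53). For Cyp8b1 they were Csrp3 (0.76), Hadha (0.69) and Cyp4a10 (0.66), the last 2 enzymes of fatty acid oxidation. For Cyp7b1 they included Hao1 (0.91) and Selenbp2 (0.89), and for Nr0b2 they were Apol9b (0.78), Gle1 (0.77) and Etaa1 (0.74). The values are descriptions, with no test.

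Other genes of the pathway were taken from a list for each role. Of 12 further synthesis enzymes tested, 1 was higher in WT obese mice, while KO obese mice had 2 higher and 2 lower and 1 was higher in KO lean mice, with list medians of -0.02, 0.07 and -0.20 on the log2 scale. These counts of 1, 4 and 1 stand beside 6.27%, 24.1% and 16.3% of all genes called in the same comparisons, and the same shares apply to the lists below. Akr1d1, the 5-beta-reductase that shapes the bile acid ring, was higher in WT obese (log2 fold change of 0.68 ± 0.20 (SE), limma adjusted p = 0.073) and in KO obese mice (0.98 ± 0.31, adjusted p = 0.042). The WT call was lost with the identifier block (adjusted p = 0.183) and kept in 7 of 14 omissions of 1 mouse. Its values ran from 967 to 4590 in KO lean and from 3088 to 7570 in KO obese liver. Amacr and Acot8, which act in the peroxisomal shortening of the side chain, were lower in KO obese mice (-0.53 ± 0.13, adjusted p = 0.016, and -0.66 ± 0.13, adjusted p = 0.0064). Acot8 was also higher in KO lean than in WT lean mice (0.49 ± 0.14, adjusted p = 0.054), a call lost with the block (adjusted p = 0.152) and kept in 9 of 14 omissions.

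Among the export carriers, Abcc3 (MRP3), which moves bile acids back into the blood across the basolateral membrane, measured 1322 ± 308 (SD, n = 7) in WT lean and 3119 ± 1043 in WT obese liver (log2 fold change of 1.19 ± 0.22 (SE), limma adjusted p = 0.0059). It measured 1299 ± 598 in KO lean and 4337 ± 1623 in KO obese liver (1.77 ± 0.31, adjusted p = 0.0038). Both calls held under each alternative setting and without any 1 mouse. Abcc2 (MRP2), a canalicular pump, was higher in KO obese than KO lean mice (0.65 ± 0.17, adjusted p = 0.019) and lower in KO lean than WT lean mice (-0.66 ± 0.18, adjusted p = 0.046). The latter call was lost with the block (adjusted p = 0.146) and kept in 11 of 14 omissions. These were 1 of 8 export genes tested in WT obese mice, 2 of 9 in KO obese mice and 1 of 8 in KO lean mice, with list medians of -0.12, 0.08 and -0.33 beside 0.00 over all genes.

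Among the receptors and signal genes, 2 of 13 tested passed in each diet comparison and 1 of 13 in the lean genotype comparison, with list medians of -0.14, 0.11 and -0.24. Klb, the co-receptor through which the gut hormone FGF15 acts on hepatocytes, was lower in WT obese (-0.90 ± 0.22 (SE), limma adjusted p = 0.032) and in KO obese mice (-0.65 ± 0.13, adjusted p = 0.0069). With the block the WT call of Klb was lost (adjusted p = 0.123). Its values ran from 839 to 2015 in WT lean and from 462 to 1224 in WT obese liver. Nr1i3 (CAR), a xenobiotic receptor, was higher in both (0.94 ± 0.29, adjusted p = 0.091, and 0.60 ± 0.10, adjusted p = 0.0039). In WT mice the Nr1i3 call was lost with the block (adjusted p = 0.18) and kept in 3 of 14 omissions of 1 mouse. Onecut1, a hepatocyte transcription factor, was lower in KO lean than WT lean mice (-1.58 ± 0.44, adjusted p = 0.048), a call lost with the block (adjusted p = 0.146) and kept in 12 of 14 omissions.

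Of 7 other uptake genes, 2 passed in each diet comparison and none between the genotypes, with list medians of 0.01 in WT, 0.15 in KO and 0.01 in lean mice. Ephx1, an epoxide hydrolase also described as a basolateral bile acid carrier, was higher in WT obese (0.69 ± 0.12 (SE), limma adjusted p = 0.0053) and KO obese mice (0.79 ± 0.20, adjusted p = 0.018). Slco2a1 was lower in WT obese (-0.64 ± 0.19, adjusted p = 0.081) and Slco2b1 higher in KO obese mice (0.31 ± 0.12, adjusted p = 0.081). Both calls were lost with the block (adjusted p of 0.254 and 0.169) and kept in 5 and 4 of 14 omissions. No gene of these 4 lists passed on the high fat diet between the genotypes or with RvE1.

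Cyp7a1 transcription is known to follow the daily rhythm, and clock genes were therefore counted. Of 13 tested, 3 were higher and 2 lower in WT obese mice, and KO obese mice had 4 higher and 1 lower, with list medians of 0.22 and 0.25, beside 6.27% and 24.1% of all genes called. With the block 2 of the 5 passed in WT mice, where Tef, Npas2 and Hlf were lost (adjusted p of 0.104, 0.181 and 0.228), and 4 of the 5 in KO mice, where Npas2 was lost (adjusted p = 0.135). Per3 was higher in both (log2 fold change of 1.48 ± 0.24 (SE), limma adjusted p = 0.0028, in WT and 1.11 ± 0.32, adjusted p = 0.031, in KO mice). No clock gene tested passed in the comparisons of genotype or RvE1. The part of the clock genes in the values of Cyp7a1 was not tested.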

How the data were processed

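RNA of whole liver from 42 mice was sequenced as paired reads. Per the labels and the study's methods, the authors aligned reads to mm10 with Bowtie2, counted pairs with both ends mapped per gene with featureCounts (Subread), and scaled each of 6 comparisons with DESeq2. For versions, annotation and strand, the sources used here give nothing. The kit named is for total RNA, while the labels name polyA RNA. The deposited values are a signal, reads per gene divided by the size factor of the library, in 6 tables of 14 libraries. The authors' fold changes and p-values, which stand in the same tables, were not used.

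Dividing each column by the value of 1 read, estimated from its lowest values, gave whole reads for 100.0% of values, within 0.1 of a read. Date-like names that a spreadsheet had altered (20 to 26 per table) were left out of the check between tables and of the joined values of all mice. They were not removed before the tests within a table, and they count among the genes tested there. Tests took genes whose normalized count averaged at least 5, as log2(normalized count + 1), in limma 3.58.1 (R 4.3.3), with a mean-variance trend, over the 14 libraries of a table, two-sided, and with Benjamini-Hochberg adjustment over all genes of the table. Fold changes are on this scale. An interaction is the KO fold change minus the WT fold change, each formed within its own table, in 1 fit over 28 libraries. Alternatives were edgeR 4.0.16 and DESeq2 1.42.0 on the recovered reads, TMM scaling, pseudocounts of 0.5 and 4, no filter, a correction for gene length and GC content (92.9% of names matched), library quality weights, a random block for the opening number of the mouse identifier, a threshold of 0.05, a fold change above 1.5 as well, and leaving out each mouse. The same WT and KO vehicle libraries enter several tables, so the comparisons are not independent. The p-values of the fits set a difference against the spread between these mice, taken as independent except in the fit with the block. Correlations used 100000 permutation draws within groups. The fits were tested on simulated counts, drawn independently for each mouse and with the same dispersion for all genes. That test does not cover a likeness between mice that share an identifier number.

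The members and gene lists were chosen with earlier results of these data known. Named were all 10 members, up to 3 genes of each list with the smallest adjusted p among those that passed, and the 3 genes most like Cyp7a1, Cyp8b1, Cyp7b1 and Nr0b2. For Cyp7b1, 1 of these 3 genes is not reported here.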

Additional observations from a re-analysis of the deposited data

Results flagged for a closer look

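Among 60 sets of 1 member in 1 group of 7 mice, 7 held a mouse whose gap to the next value was, over the range of the group, above the 95% critical value of Dixon's test. Chance gives about 1 in 20 such sets where values are normal and sets independent. These sets held normalized counts and shared mice, so the 7 flags cannot be tested against that rate. Mouse 15-2L of the KO obese+RvE1 group had the lowest Cyp8b1 of its group (7553 normalized counts, next 12584) and the highest Nr0b2 (3041, next 1346). In the same group mouse 23-2L had the highest Cyp27a1 (15776, next 9987). Mouse 30RL of the WT obese+RvE1 group had the highest Nr0b2 (2265, next 1286). In WT lean mice, 26L had the highest Cyp7b1 (12638, next 6337). In WT obese mice, 6R had the lowest Baat (7087, next 9248) and 27RL the lowest Nr1h4 (1978, next 2815).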

How the results depend on the processing

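The 3 calls did not hold under every setting. In WT obese against WT lean mice, 1 member passed, and 0 passed at an adjusted p under 0.05, with the gene length and GC correction and with the identifier block, and 0 to 1 when 1 mouse was left out. In KO obese against KO lean mice, 1 member passed, 0 with the threshold at 0.05, with the fold required above 1.5 and with the block, 4 with quality weights, edgeR or DESeq2, and 0 to 3 when 1 mouse was left out. In KO lean against WT lean mice, 1 passed, 0 at an adjusted p under 0.05, with the fold, with the length and GC correction, with the block and without the mice numbered 21, 26, 8 or 9, 2 without those numbered 20, 3 with quality weights, and 0 to 3 when 1 mouse was left out. Baat was not 1 of the 2 that passed without the mice numbered 20 (limma adjusted p = 0.139). In the interaction of diet and genotype 1 passed with quality weights. The cause was not tested. Over all genes, the block lowered the count from 878 to 279, from 3422 to 1057 and from 2123 to 3 in these 3 comparisons, and from 2 to 0 in obese KO against WT mice. Quality weights raised the first 3 to 1605, 5737 and 4297, and the interaction count from 1 to 2566. DESeq2 gave 1367 in WT mice on the diet, 3 in obese KO against WT mice and 927 for the interaction, where edgeR gave 38. An adjusted p under 0.05 left 462, 2064 and 718, and a fold change above 1.5 left 532, 1476 and 866. Leaving out 1 mouse gave 522 to 1290, 2219 to 4503 and 572 to 3540. Of 720 log2 fold changes of members under other settings, 36 turned sign, 34 of them with a size under 0.3. The other 2, with quality weights, were Cyp7b1 with RvE1 in KO mice (0.12) and Nr0b2 in the diet interaction (0.20). The r of Cyp7a1 with Hsd3b7 was 0.0143 without the 2 farthest mice. No paired analysis was possible because the replicate numbers follow accession order and the mice of different groups are different animals.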
